A study of Mus musculus with 12 samples.

Results

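Genes of fibrosis, extracellular matrix and the hepatic stellate cell were examined in livers of mice labelled as lacking LRH-1 (Nr5a2), a nuclear receptor of hepatocytes. The set has 33 genes, taken by symbol from the 24062 genes of the count tables: 13 collagen chains, 3 small proteoglycans, 6 genes of glycoproteins, elastic fibres and collagen crosslinking, 5 matrix proteases and protease inhibitors, and 6 stellate cell and ligand genes. All 33 were listed in every library, and 29 passed the filter on low counts that left 12015 genes in the tests.

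RNA was sequenced from livers of male mice aged 14 weeks, on a mixed 129SvEV and C57BL/6 background, with a floxed Nr5a2 allele (Nr5a2 fl). The HFD knockout group (2 libraries) was given the vector AAV8-Cre and ate the high-fat diet D12492 for 6 weeks. The HFD control group (4 libraries) was floxed without Cre and ate the same diet. The SD knockout group (3 libraries) was given AAV8-Cre and stayed on standard diet, and the SD control group (3 libraries) was floxed without Cre on standard diet. The series text gives AAV8-eGFP as the control vector, so all groups share the floxed allele and a viral vector. AAV8 delivers mainly to hepatocytes, while stellate cells and other non-parenchymal cells are not its usual targets. No source used here names the promoter that drives Cre. Whether each library came from its own mouse is not stated in the labels, and p-values therefore speak only of spread among libraries, which may be technical.

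Hepatic stellate cells lie between hepatocytes and the sinusoidal endothelium and store vitamin A as retinyl esters. In liver injury they become myofibroblasts that secrete fibrillar collagens, crosslink them and lay them down as scar, with TGF-beta as a main inducing ligand. Other matrix proteins have other sources, and hepatocytes make most of the plasma fibronectin that circulates in blood.

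Libraries held 7463792 to 10875478 counts on HFD and 2371167 to 3404570 counts on SD, and the depths of the diets did not overlap. Nr5a2 itself had 69.1 and 84.5 CPM (counts scaled to a common library size) in HFD knockout libraries, against 77.0, 74.5, 64.3 and 66.8 CPM in HFD controls. It had 95.3, 100.1 and 94.7 CPM in SD knockout libraries, against 84.4, 74.8 and 85.8 CPM in SD controls. Total Nr5a2 counts were thus not lower in either knockout group, and which exons were deleted is not given. Nr0b2, a target gene of LRH-1, was at 0 and 0.335 CPM in HFD knockout libraries, against 6.26 to 13.3 CPM in HFD controls. It was at 0 in all 3 SD knockout libraries, against 10.5 to 15.3 CPM in SD controls. "Knockout" below names the group by its label.

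Read per kilobase of exon, fibronectin (Fn1) was the most abundant gene of the set in every group. It had a mean of 114 CPM per kilobase in HFD knockout livers, 196 in HFD controls, 131 in SD knockout livers and 247 in SD controls. Col18a1 (the collagen XVIII chain that yields endostatin), the proteoglycan genes Dcn (decorin) and Bgn (biglycan) followed at 19.6 to 34.6 CPM per kilobase. Their order changed from group to group, and in HFD knockout livers Sparc, at 26.3 CPM per kilobase, ranked just above Bgn at 25.7. The chains of scar collagen were far lower, with all group means of Col1a1, Col1a2 and Col3a1 under those of Sparc, Lrat and Timp3. Among the lowest genes were Timp1 (a metalloprotease inhibitor made in injured liver), Lox and Loxl1 (enzymes that crosslink collagen and elastin) and Eln (elastin). These 4 were the members that did not pass the filter.

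**Figure D1:**
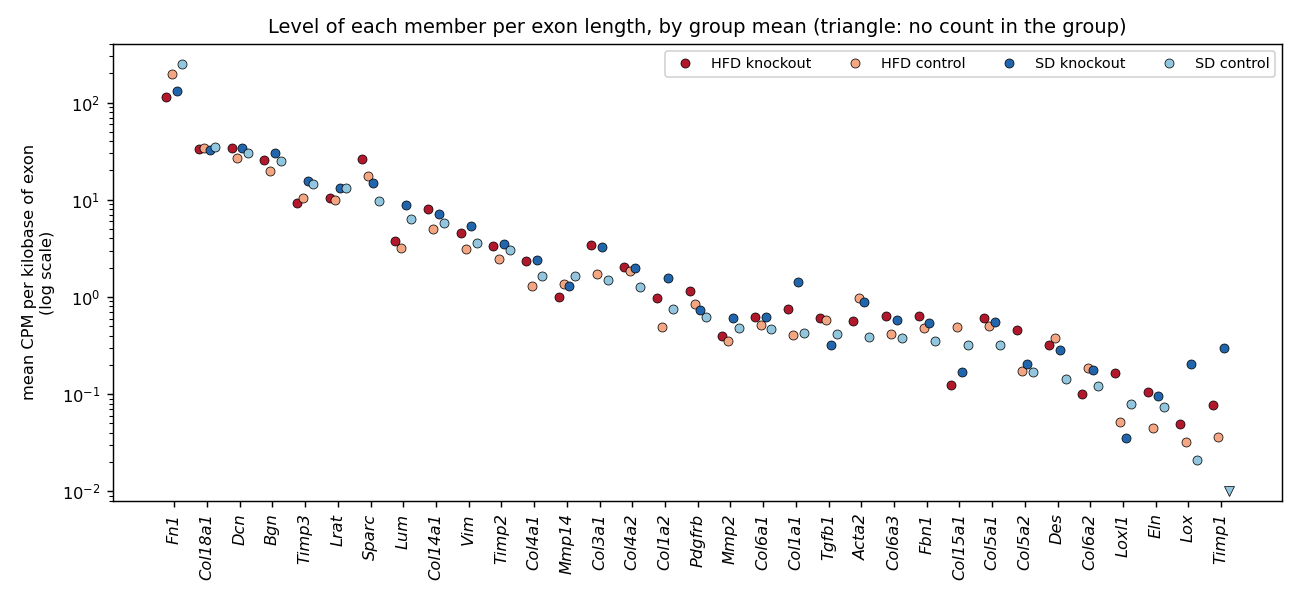
Mean level of each of the 33 genes per kilobase of annotated exon (CPM per kilobase, log scale) in HFD knockout, HFD control, SD knockout and SD control livers, ordered by abundance. Fn1 stands highest in every group, between 114 and 247 CPM per kilobase, and the triangle marks Timp1 with no count in SD controls.

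The 4 low genes were counted only a few times in any group. Timp1 had 1 count over both HFD knockout libraries, 1 over the 4 HFD controls, 2 over the 3 SD knockout libraries and 0 over the SD controls. Eln had 13, 12, 6 and 5 counts in the same group order, Loxl1 had 8, 6, 1 and 2, and Lox had 4, 6, 8 and 1. A count of 0 over a group allowed up to 0.186 CPM in HFD knockout, 0.0845 CPM in HFD control, 0.358 CPM in SD knockout and 0.360 CPM in SD control livers (3 counts per group, counting error only). No test was run on these genes. Lox had 2 to 4 counts in each SD knockout library, against 0 or 1 in each SD control.

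Fn1 fell in knockout livers on both diets. It had 1170.0 and 1497 CPM in HFD knockout libraries, against 2217, 2369, 2200.5 and 2389 CPM in HFD controls. On standard diet it had 1555, 1673 and 1354 CPM in knockout libraries, against 2814, 2684 and 3169 CPM in controls. Every knockout library lay below every control library of its diet, and all 5 knockout libraries lay below all 7 controls. The log2 fold change was -0.78 (SE 0.13, adjusted p = 0.00509) on HFD and -0.92 (SE 0.12, adjusted p = 0.000622) on SD, by edgeR's quasi-likelihood test with Benjamini-Hochberg adjustment over all 12015 genes. Averaged over the diets it was -0.85 (SE 0.09, adjusted p = 3.49e-05), a level 1.80 times lower. Without HFD knockout 1, which leaves 1 HFD knockout library, the HFD value was -0.61 and its call was lost. The SD and averaged calls held in every alternative run.

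Hepatocyte markers stood beside this fall. Their summed level over 14 genes ranged 167219 to 210178 CPM in HFD knockout libraries, against 152948 to 160603 CPM in HFD controls. On SD it ranged 158269.8 to 214099.8 CPM in knockout libraries, against 166883 to 203047 CPM in controls. The HFD sums did not overlap and the SD sums did. Of the single markers, 2 of the 13 tested had fold changes above 0 on each diet (15.4%, beside 48.8% of all tested genes on HFD and 50% on SD), with a median log2 fold change of -0.19 on HFD and -0.26 on SD. On HFD edgeR called Ttr (transthyretin) higher (0.64, adjusted p = 0.0116) and Pck1 (a gluconeogenic enzyme) lower (-1.02, adjusted p = 0.0139). The Ttr call was lost without HFD knockout 1, with only the compared groups in the fit or with replicate number as a block, and the Pck1 call without either HFD knockout library. On SD it called Fgb, the fibrinogen beta chain, lower (-0.71, adjusted p = 0.0390), a call lost without SD control 2, SD control 3 or any SD knockout library. The part of these markers in the fall of Fn1 was not tested.

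Since Fn1 carried most of the set's counts, the set's total followed it. Fn1 made up 49.5% and 62.3% of the members' counts in HFD knockout libraries, against 68.9% to 75.7% in HFD controls. Its share was 56.2% to 60.2% in SD knockout libraries, against 72.6% to 76.1% in SD controls. The summed level of all 33 genes was 2365 and 2403 CPM in HFD knockout libraries, against 3107 to 3221 CPM in HFD controls, and 2411 to 2922 CPM in SD knockout libraries, against 3697 to 4163 CPM in SD controls. Without Fn1 the other 32 genes summed to 1195 and 906 CPM in HFD knockout libraries, against 765 to 1002 CPM in HFD controls. On SD they summed to 1027, 1248 and 1056 CPM in knockout libraries, against 913, 1012 and 993 CPM in controls. The groups without Fn1 overlapped on HFD and lay next to each other on SD.

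**Figure D2:**
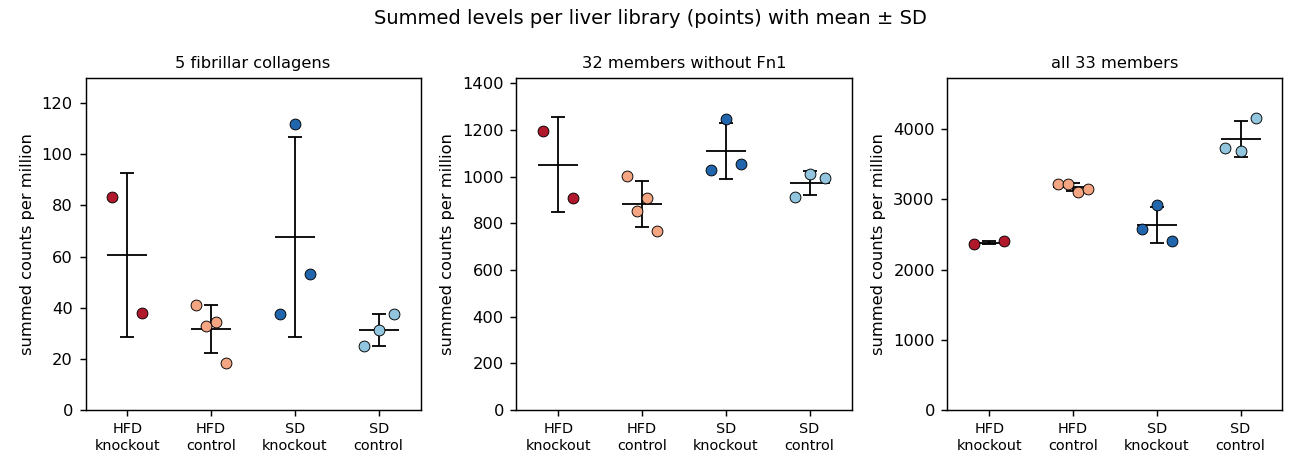
Summed CPM per liver library (points) with group mean and SD (bars) for the 5 fibrillar collagens, the 32 genes without Fn1 and all 33 genes. The knockout sums of all 33 genes lie below their controls on both diets, while the fibrillar sums of SD knockout 2 (112 CPM) and HFD knockout 1 (83.2 CPM) stand above every other library.

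The fibrillar collagens, whose chains Col1a1, Col1a2, Col3a1, Col5a1 and Col5a2 build the banded fibres of scar, all had fold changes above 0 on both diets. The chain alpha-2 of collagen I (Col1a2) had 14.6 and 9.49 CPM in HFD knockout libraries, against 7.90, 7.20, 6.98 and 2.60 CPM in HFD controls. It had 15.7, 26.8 and 15.3 CPM in SD knockout libraries, against 7.03, 8.44 and 12.8 CPM in SD controls. The groups did not overlap on either diet. Its log2 fold change was 0.93 (SE 0.34, adjusted p = 0.191) on HFD and 0.99 (SE 0.37, adjusted p = 0.167) on SD by edgeR, so neither diet passed alone. Averaged over the diets Col1a2 rose by 0.96 (SE 0.25, adjusted p = 0.0263).

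Collagen III (Col3a1) had 48.1 and 19.9 CPM in HFD knockout libraries, against 21.3, 17.1, 18.1 and 10.8 CPM in HFD controls. It had 16.0, 58.4 and 22.6 CPM in SD knockout libraries, against 12.1, 14.5 and 17.7 CPM in SD controls. HFD knockout 1 and SD knockout 2 were far above the rest, and the other knockout libraries overlapped the controls or lay next to them. The averaged log2 fold change was 1.04 (SE 0.30, adjusted p = 0.0411 by edgeR), with 0.99 on HFD (adjusted p = 0.232) and 1.10 on SD (adjusted p = 0.214). DESeq2 gave an adjusted p of 0.0536 for the averaged change.

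The other fibrillar chains did not pass. Col1a1 had 7.09 and 2.79 CPM in HFD knockout libraries, against 3.45, 3.10, 3.32 and 0.780 CPM in HFD controls, and 2.33, 19.2 and 6.62 CPM in SD knockout libraries, against 1.17, 3.22 and 3.97 CPM in SD controls. Its averaged log2 fold change of 1.25 (SE 0.47) had an adjusted p of 0.126 by edgeR, and its groups overlapped on both diets. Col5a1 and Col5a2, chains of collagen V that start fibril assembly, stayed below 7 CPM in every library. Col5a2 reached 6.95 CPM in HFD knockout 1 and had 1.90 CPM in HFD knockout 2, against 2.27, 2.36, 1.03 and 1.04 CPM in HFD controls. On SD it had 1.00, 2.80 and 2.09 CPM in knockout libraries, against 2.73, 1.21 and 0.916 CPM in controls, and it overlapped on both diets. Its HFD log2 fold change was 1.35 (SE 0.50, adjusted p = 0.209).

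**Figure D3:**
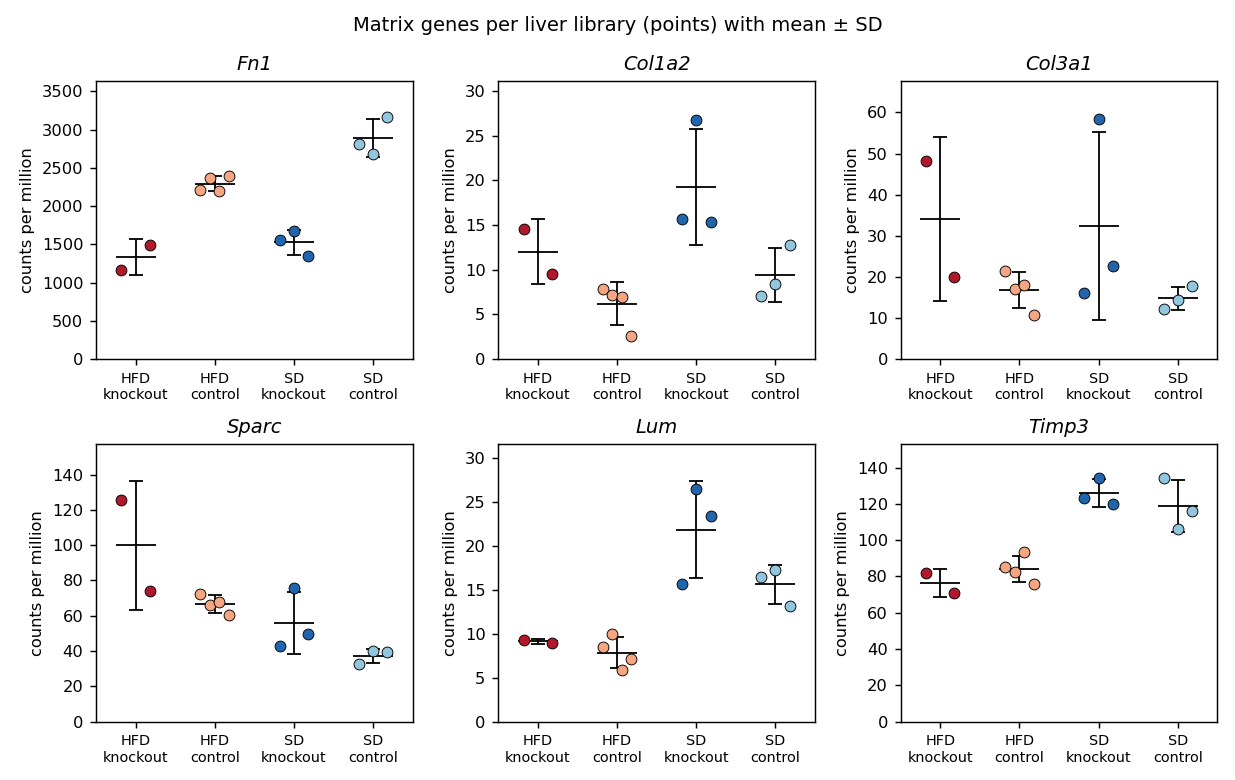
CPM of Fn1, Col1a2, Col3a1, Sparc, Lum and Timp3 in each liver library (points) with the group mean and SD (bars), for HFD knockout (n = 2), HFD control (n = 4), SD knockout (n = 3) and SD control (n = 3). Fn1 is lower in knockout livers on both diets, 1 library in each knockout group stands high for Col3a1 and Sparc, and Lum and Timp3 are lower on HFD.

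SPARC (Sparc, osteonectin), a collagen-binding glycoprotein made by stellate and endothelial cells, was the third gene that rose in the averaged comparison. It had 126 and 73.9 CPM in HFD knockout libraries, against 72.5, 65.9, 67.6 and 60.4 CPM in HFD controls. It had 42.7, 75.6 and 49.5 CPM in SD knockout libraries, against 32.4, 39.8 and 39.4 CPM in SD controls. The groups did not overlap on either diet, although on HFD the lower knockout library at 73.9 CPM stood next to a control at 72.5 CPM. The log2 fold change was 0.58 on each diet (adjusted p = 0.162 on HFD and 0.175 on SD by edgeR) and 0.58 averaged (SE 0.15, adjusted p = 0.0243).

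The calls of these 3 rises each depended on single libraries. A fit without HFD knockout 1 leaves 1 HFD knockout library. The averaged log2 fold change there was 0.80 for Col1a2, 0.66 for Col3a1 and 0.37 for Sparc, and none of the 3 kept its call. Without SD knockout 2 the averaged change by edgeR was 0.81 for Col1a2 (adjusted p = 0.0847) and 0.68 for Col3a1 (adjusted p = 0.137). For Sparc it was 0.44 (adjusted p = 0.0735). Over all genes edgeR called 219 higher and 497 lower without SD knockout 2, against 361 and 644 with all libraries. Without SD control 1 edgeR called 348 and 597. A setting without HFD knockout 1 and SD knockout 2 was chosen after seeing the data and also leaves 1 HFD knockout library. The averaged change there was 0.65 for Col1a2, 0.30 for Col3a1 and 0.23 for Sparc, and none of the 3 was called. All 3 also missed the threshold without SD control 1, at 0.88 for Col1a2 (adjusted p = 0.0627), 0.99 for Col3a1 (adjusted p = 0.0875) and 0.54 for Sparc (adjusted p = 0.0563). Col1a2 missed it without SD control 2 (0.93, adjusted p = 0.0651) and Sparc without SD control 3 (0.61, adjusted p = 0.0502). Col3a1 missed it without SD control 2, SD control 3, HFD control 2, HFD control 3 or HFD control 4, at 0.97 to 1.13 (adjusted p = 0.0538 to 0.0878). Fn1 stayed at -0.80 without both knockout libraries and kept its call.

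The sequences around the start sites of the 3 genes that rose in the averaged comparison are shown because these genes passed in that comparison. They span 250 bases before to 50 bases after the RefSeq start on GRCm38.p6, 5′ to 3′ on the gene's strand. Col1a2 is at chr6:4505368-4505667 on the plus strand, Col3a1 at chr1:45311288-45311587 on the plus strand and Sparc at chr11:55420031-55420330 on the minus strand. Capitals mark the SMAD element CAGACA, read as TGTCTG on the other strand, and the GC box GGGCGG.
Col1a2: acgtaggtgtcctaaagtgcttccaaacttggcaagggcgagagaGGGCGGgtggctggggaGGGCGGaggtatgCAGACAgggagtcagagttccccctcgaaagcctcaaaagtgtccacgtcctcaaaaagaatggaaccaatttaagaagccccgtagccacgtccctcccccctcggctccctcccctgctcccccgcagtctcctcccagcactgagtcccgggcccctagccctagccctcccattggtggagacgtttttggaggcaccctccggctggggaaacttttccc
Col3a1: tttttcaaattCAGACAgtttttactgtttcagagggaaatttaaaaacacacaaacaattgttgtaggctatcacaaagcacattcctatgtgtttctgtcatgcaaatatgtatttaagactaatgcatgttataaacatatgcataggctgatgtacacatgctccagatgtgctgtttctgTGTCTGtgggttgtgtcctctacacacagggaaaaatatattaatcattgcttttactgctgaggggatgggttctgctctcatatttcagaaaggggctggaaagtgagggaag
Sparc: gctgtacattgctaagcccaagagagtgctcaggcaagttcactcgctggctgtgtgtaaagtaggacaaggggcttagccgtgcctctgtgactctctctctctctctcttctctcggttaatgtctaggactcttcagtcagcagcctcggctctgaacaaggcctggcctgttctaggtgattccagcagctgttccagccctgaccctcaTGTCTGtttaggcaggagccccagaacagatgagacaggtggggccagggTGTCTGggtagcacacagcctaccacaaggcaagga

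The RefSeq table matched 22 of the 33 genes, with 24 promoters among its 32851, and Fn1 was not among the 22. CAGACA, on either strand, was in 7 of the 24 (29.2%), against 21.0% of all promoters. GGGCGG was in 16 of 24 (66.7%), against 35.7% of all. The LRH-1 element NCAAGGNCA, on either strand, was in 0 of 24, against 6.68% of all. It says only that those letters are not in these windows.

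Among the chains of basement membranes, Col4a1 and Col4a2 form the collagen IV sheet, and Col15a1 and Col18a1 belong to multiplexins, which carry glycosaminoglycan chains. Col4a1 had 21.8 and 13.1 CPM in HFD knockout libraries, against 15.9, 7.20, 6.75 and 8.71 CPM in HFD controls (log2 fold change 0.82, adjusted p = 0.224 by edgeR). It had 11.7, 24.0 and 18.1 CPM in SD knockout libraries, against 11.3, 14.9 and 11.0 CPM in SD controls, and its groups overlapped on both diets. Col4a2 had 13.7, 13.6 and 12.2 CPM in SD knockout libraries, against 6.25, 9.24 and 9.46 CPM in SD controls (log2 fold change 0.65, adjusted p = 0.197). The Col4a2 groups did not overlap on SD, and they overlapped on HFD, where knockout libraries had 14.0 and 12.8 CPM, against 16.1, 10.2, 13.2 and 9.23 CPM in controls.

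Col15a1 ran the other way. It had 0.139 and 1.45 CPM in HFD knockout libraries, against 3.63, 2.73, 3.43 and 2.60 CPM in HFD controls. It had 0.667, 0.801 and 1.74 CPM in SD knockout libraries, against 0.781, 2.01 and 3.36 CPM in SD controls. The groups did not overlap on HFD and overlapped on SD, and the averaged log2 fold change of -1.41 (SE 0.46) had an adjusted p of 0.0754 by edgeR. Col18a1 averaged 232 ± 11.5 CPM in HFD knockout livers (SD, n = 2) and 241 ± 19.3 CPM in HFD controls (SD, n = 4). It averaged 226 ± 16.2 CPM in SD knockout livers and 243 ± 22.6 CPM in SD controls (SD, n = 3 each), with a log2 fold change of -0.08 (SE 0.08) averaged over the diets.

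Collagen XIV (Col14a1), which coats fibrils, had 66.4 and 46.5 CPM in HFD knockout libraries, against 46.4, 30.2, 38.5 and 24.7 CPM in HFD controls. It had 46.7, 54.4 and 48.8 CPM in SD knockout libraries, against 32.8, 43.8 and 45.5 CPM in SD controls. The groups touched without overlapping on both diets, and the averaged log2 fold change was 0.49 (SE 0.15, adjusted p = 0.0613 by edgeR). The collagen VI chains Col6a1, Col6a2 and Col6a3, which form beaded microfilaments, did not pass, with averaged log2 fold changes of 0.29, -0.18 and 0.58. Col6a3 had 11.1 and 4.13 CPM in HFD knockout libraries, against 3.97 to 6.98 CPM in HFD controls.

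The small leucine-rich proteoglycans bind collagen fibrils and set their spacing. Bgn had 188 and 126 CPM in HFD knockout libraries, against 136, 122, 117 and 104 CPM in HFD controls, and 181, 187 and 187 CPM in SD knockout libraries, against 155, 158 and 148 CPM in SD controls. The groups overlapped on HFD and not on SD, and the averaged log2 fold change of 0.33 (SE 0.10) had an adjusted p of 0.0510 by edgeR. Dcn averaged 199 ± 25.2 CPM in HFD knockout livers (SD, n = 2) and 158 ± 34.2 CPM in HFD controls (SD, n = 4), and 198 ± 9.25 CPM in SD knockout livers and 179 ± 23.7 CPM in SD controls (SD, n = 3 each). Lum (lumican) had 9.31 and 8.93 CPM in HFD knockout libraries, against 8.44, 9.93, 5.84 and 7.15 CPM in HFD controls. It had 15.7, 26.4 and 23.3 CPM in SD knockout libraries, against 16.4, 17.3 and 13.1 CPM in SD controls. Its groups overlapped on both diets, and its averaged log2 fold change was 0.35 (adjusted p = 0.228).

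Fibrillin-1 (Fbn1), the core of elastic microfibrils, had 11.3 and 4.35 CPM in HFD knockout libraries, against 3.12 to 7.44 CPM in HFD controls. It had 4.00, 11.2 and 4.53 CPM in SD knockout libraries, against 3.62 to 5.08 CPM in SD controls. HFD knockout 1 and SD knockout 2 were again the high libraries. In the GENCODE M21 annotation 20.1% of the Fbn1 exon length lies under another gene on the opposite strand. Whether the counting used strand is not stated, which leaves that part of its count uncertain.

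The metalloproteases and their inhibitors did not pass the test in any knockout comparison. Mmp14, a membrane protease that activates pro-MMP2, had 6.25 and 5.69 CPM in HFD knockout libraries, against 8.98, 5.71, 8.36 and 9.62 CPM in HFD controls. It had 8.67, 7.60 and 6.97 CPM in SD knockout libraries, against 8.59, 12.5 and 8.55 CPM in SD controls, with an averaged log2 fold change of -0.40 (SE 0.18, adjusted p = 0.202 by edgeR). Mmp2 (gelatinase A) stayed between 0.726 and 2.40 CPM. Timp2 had an averaged log2 fold change of 0.31 (adjusted p = 0.373). Timp3, an inhibitor bound to matrix, was at -0.03 (SE 0.08). For Timp3 21.3% of the exon length overlaps a gene on the opposite strand.

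The 6 stellate cell and ligand genes of the set had no call between knockout and control livers. Lrat, which esterifies retinol and marks vitamin A-storing stellate cells, had 55.2 and 55.7 CPM in HFD knockout libraries, against 49.0, 63.3, 45.9 and 52.3 CPM in HFD controls. It had 65.0, 68.8 and 79.4 CPM in SD knockout libraries, against 62.5, 78.4 and 71.1 CPM in SD controls. The averaged log2 fold change was 0.04 (SE 0.10). The groups overlapped on both diets.

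Acta2, the smooth muscle actin of myofibroblasts, was near the limit of counting. It had 1.81 and 0.670 CPM in HFD knockout libraries, against 2.54, 5.59, 0.114 and 0.390 CPM in HFD controls, and 0, 4.80 and 1.04 CPM in SD knockout libraries, against 1.56, 0.402 and 0.610 CPM in SD controls. Its log2 fold change was -0.83 (SE 1.02) on HFD and 1.10 (SE 1.46) on SD, so neither direction stood out of its error. Des (desmin, an intermediate filament of stellate cells) stayed below 2.2 CPM. Pdgfrb, the receptor for the mitogen PDGF, had an averaged log2 fold change of 0.32 (SE 0.26), and the ligand gene Tgfb1 was at -0.12 (SE 0.32). Vim (vimentin, a filament of mesenchymal cells) had 26.1 and 16.7 CPM in HFD knockout libraries, against 18.1, 15.9, 14.5 and 11.0 CPM in HFD controls. It had 16.7, 38.8 and 20.6 CPM in SD knockout libraries, against 16.4, 14.1 and 20.1 CPM in SD controls, with an averaged log2 fold change of 0.53 (adjusted p = 0.128). In bulk RNA, fewer cells of a type and less RNA per cell cannot be told apart.

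**Figure D4:**
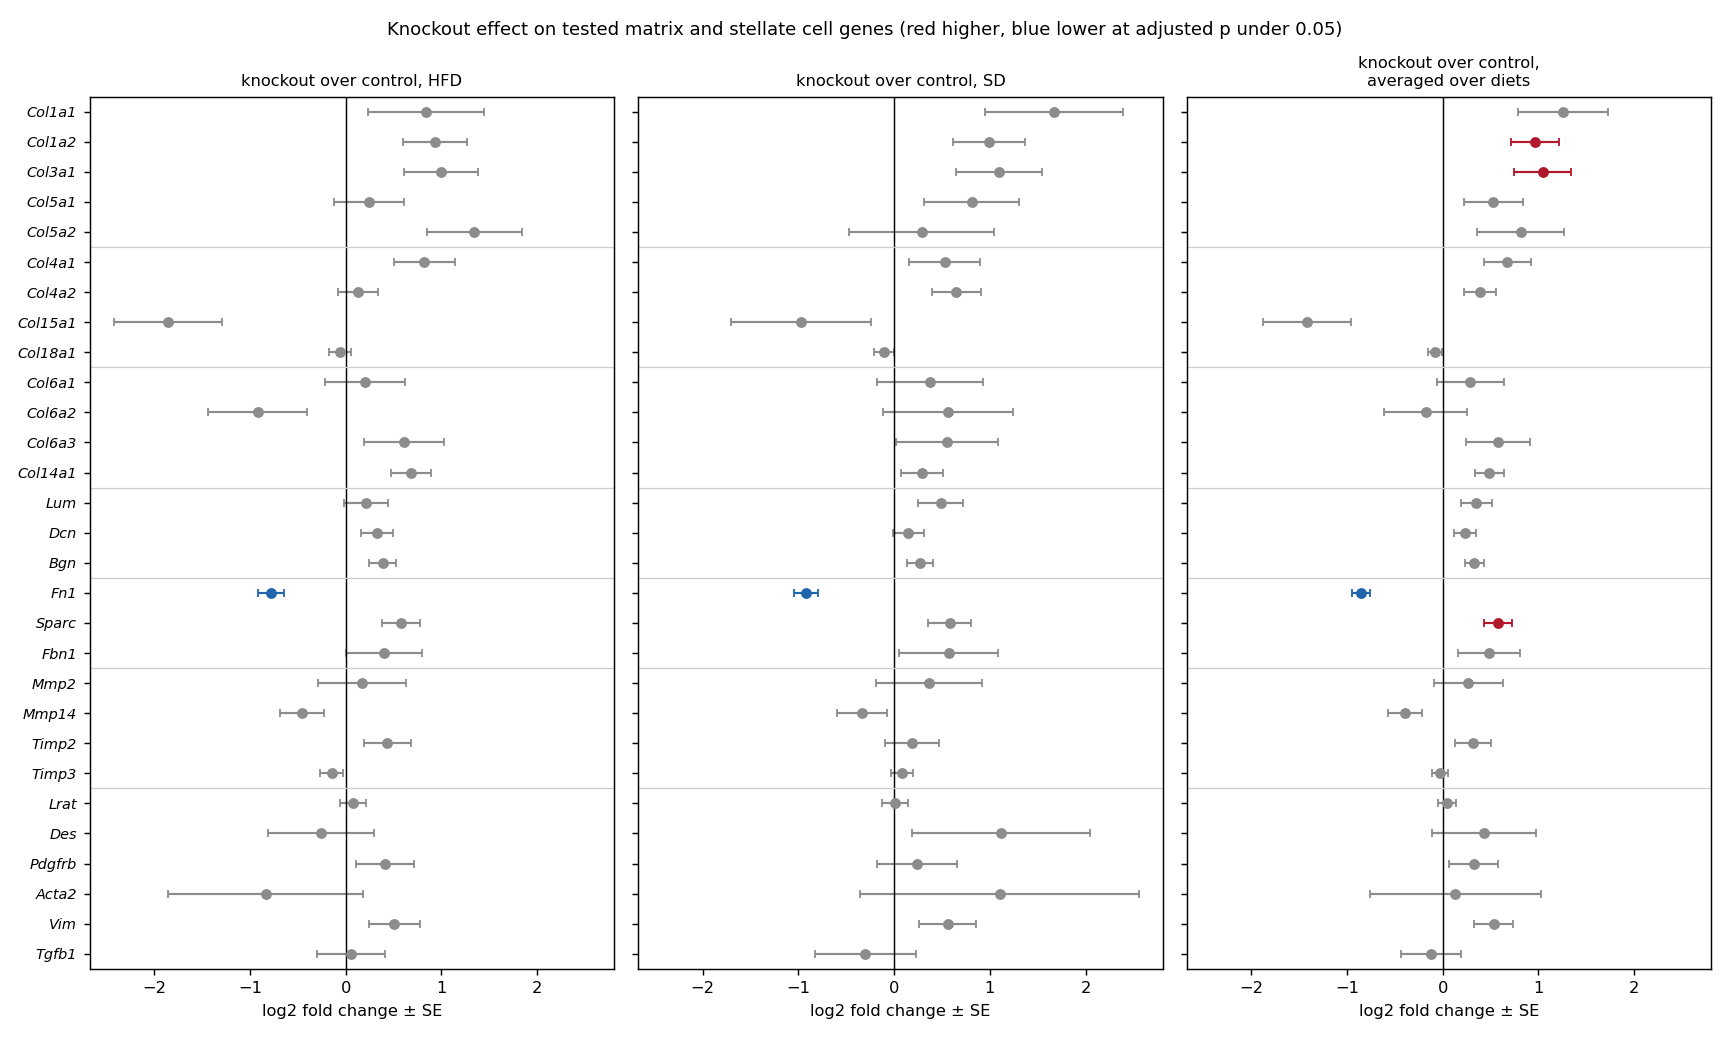
Log2 fold change of knockout over control, with SE, for the 29 tested genes on HFD, on SD and averaged over the diets, with rows grouped by role. Fn1 is lower in each panel, and Col1a2, Col3a1 and Sparc pass the adjusted p threshold of 0.05 in the averaged panel alone.

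Over the whole set, edgeR called 0 of the 29 tested genes higher and 1 (Fn1) lower on HFD, where 1.04% of all tested genes were called higher and 1.66% lower. On SD it called 0 higher and 1 (Fn1) lower, beside 1.44% and 2.94% of all tested genes. At an unadjusted p under 0.05, 7 of 29 were higher and 2 lower on HFD, beside 6.31% and 7.73% of all tested genes. On SD 5 were higher and 1 lower, beside 7.72% and 9.93%. At this looser cut the share higher was above the background on both diets and the share lower was below it. These shares were not tested. DESeq2 also called 0 higher and 1 lower on each diet. For the calls at an adjusted p under 0.05, a count of 1 in 29 is 3.45%, a share near the background. Averaged over the diets 3 of 29 (10.3%) were higher and 1 (3.45%) was lower, beside 3% and 5.36% of all tested genes. DESeq2 called 4 higher (Bgn, Col14a1, Col1a2 and Sparc) and 2 lower (Col15a1 and Fn1) there, and Col3a1 was not among them.

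The direction of small differences leaned upward. The log2 fold change was above 0 for 21 of 29 genes (72.4%) on HFD, beside 48.8% of all tested genes, and for 24 of 29 (82.8%) on SD, beside 50% of all. For 20 genes it was above 0 on both diets, for 4 below 0 on both, and for 5 of mixed sign. The median was 0.25 on HFD, against -0.01 over all tested genes, and 0.37 on SD, against 0 over all. Groups did not overlap for 3 genes higher (Col1a2, Col14a1 and Sparc) and 2 lower (Fn1 and Col15a1) on HFD, where 10.3% of all tested genes were higher without overlap and 11.9% lower. On SD they did not overlap for 5 higher (Col1a2, Col4a2, Col14a1, Bgn and Sparc) and 1 lower (Fn1), beside 10.3% and 12.3% of all tested genes. The HFD share of 10.3% higher equalled the background, and the SD share was 17.2%.

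In each knockout group a single library was the highest for most of the 29 genes. HFD knockout 1 was the higher of its pair for 26 of 29 genes (89.7%), beside 49.6% of all tested genes. SD knockout 2 was the highest of its 3 libraries for 21 of 29 (72.4%), beside 32.4% of all. They were also the shallowest libraries of their diets, with 7463792 and 2371167 counts. Without both, a choice made after seeing these values, the set's median log2 fold change was 0.04 on HFD, 0.11 on SD and 0.06 averaged. Since the 2 were picked as the highest, a lower median follows from that choice. Without HFD knockout 2, which also leaves 1 HFD knockout library, the HFD median was 0.62. The SD median was 0.62 without SD knockout 1 and 0.42 without SD knockout 3. The fibrillar collagens summed to 83.2 and 37.9 CPM in HFD knockout libraries, against 41.2, 32.7, 34.2 and 18.5 CPM in HFD controls, and 37.7, 112 and 53.3 CPM in SD knockout libraries, against 25.0, 31.4 and 37.5 CPM in SD controls.

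Markers of other cells were read in the same libraries. The 17 leukocyte markers, of which 7 were tested, summed to 170 and 118 CPM in HFD knockout libraries, against 59.7 to 133 CPM in HFD controls. They summed to 47.3, 84.5 and 46.0 CPM in SD knockout libraries, against 34.8 to 62.3 CPM in SD controls. The 9 cholangiocyte markers, of which 6 were tested, summed to 134 and 116 CPM in HFD knockout libraries, against 45.1 to 130.4 CPM in HFD controls, and to 83.3, 225 and 120.2 CPM in SD knockout libraries, against 64.7 to 71.1 CPM in SD controls. HFD knockout 1 and SD knockout 2 were the highest of their groups in both lists. Spp1 (osteopontin, also made by other cells) had 189 of the 225 CPM in SD knockout 2, and the defining keratins Krt19 and Krt7 did not exceed 1.21 CPM. The 10 portal fibroblast and mesothelial markers summed to at most 13.2 CPM. The 15 endothelial markers, all tested, summed to 503 and 561 CPM in HFD knockout libraries, against 417 to 489.6 CPM in HFD controls, and to 514 to 578 CPM in SD knockout libraries, against 466 to 593 CPM in SD controls. On HFD 14 of the 15 (93.3%) had fold changes above 0, beside 48.8% of all tested genes, with a median log2 fold change of 0.25, and on SD 7 of 15 (46.7%) did, with a median of -0.02. Malat1, a nuclear non-coding RNA, took 1.79% and 1.58% of the counts in HFD knockout libraries, against 1.13% to 1.37% in HFD controls. It took 0.677%, 0.874% and 1.07% in SD knockout libraries, against 0.461% to 0.689% in SD controls. The part of these cells, of the Malat1 share or of depth in the higher collagen values was not tested.

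Other genes of the matrix and of stellate cells were read from lists outside the 33. Of 29 other matrix proteins 21 were tested. On HFD 18 of the 21 (85.7%) had fold changes above 0, beside 48.8% of all tested genes. On SD 19 did (90.5%, beside 50% of all). The median log2 fold change was 0.35 on HFD and 0.56 on SD. DESeq2 called 1 of the 21 higher on each diet and 2 averaged. By edgeR 1 of 21 (4.76%) was called higher on HFD, on SD and averaged, beside 1.04%, 1.44% and 3% of all tested genes. This was the fibril-associated collagen Col12a1. It had 3.61 and 6.47 CPM in HFD knockout libraries, against 2.45, 1.86, 1.49 and 2.21 CPM in HFD controls, and 5.00, 6.00 and 5.92 CPM in SD knockout libraries, against 1.17, 2.41 and 1.53 CPM in SD controls. The groups did not overlap on either diet, and the averaged log2 fold change was 1.53 (SE 0.26, adjusted p = 0.00146 by edgeR), a call held in every alternative run. Within a diet it was 1.33 (adjusted p = 0.0289) on HFD, with 0.84 (adjusted p = 0.357) without HFD knockout 2, and 1.73 (adjusted p = 0.0271) on SD. The SD call was lost without SD control 1, SD control 3, SD knockout 2 or SD knockout 3, with log2 fold changes of 1.54 to 1.69. The HFD call was also lost without HFD control 2, 3 or 4, at 1.22 to 1.37. It was lost as well with only the compared groups in the fit (1.33, adjusted p = 0.112), with counts thinned to the smallest library (1.06, adjusted p = 0.263) and with replicate number as a block (1.25, adjusted p = 0.126).

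Of 14 stellate cell markers outside the set, 13 were tested, and 4 (30.8%) rose in the averaged comparison by edgeR, beside 3% of all tested genes. Colec10, a secreted collectin, had 68.1 and 77.2 CPM in HFD knockout libraries, against 50.5, 53.1, 45.7 and 42.0 CPM in HFD controls. It had 79.3, 71.6 and 74.2 CPM in SD knockout libraries, against 66.0, 65.9 and 68.4 CPM in SD controls. The groups did not overlap on either diet, and Colec10 averaged 0.39 higher (SE 0.08, adjusted p = 0.00628), a call held in every alternative run. Reln (reelin) averaged 0.51 higher (adjusted p = 0.00893) and kept its call with any single library left out.

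Colec11 averaged 0.63 higher (adjusted p = 0.0328) and Rgs5, a regulator of G-protein signalling in pericytes, 0.38 higher (adjusted p = 0.0337). Both lost the call without SD control 1 or 2, or without any one of the 3 SD knockout libraries. Colec11 also lost it without HFD control 2, HFD control 4 or HFD knockout 1, over all these settings at 0.44 to 0.66. Rgs5 also lost it without HFD knockout 2, over its settings at 0.31 to 0.40. The 14 markers summed to 416 and 398 CPM in HFD knockout libraries, against 363, 305, 317 and 284 CPM in HFD controls, and to 365 to 398 CPM in SD knockout libraries, against 280.4 to 319.8 CPM in SD controls. The sums did not overlap on either diet. They include the 4 called genes and are not separate from those calls. Reln alone had 115 and 110 CPM in HFD knockout libraries, against 71.5 to 106 CPM in HFD controls. On SD it had 156, 132 and 126 CPM in knockout libraries, against 92.6, 84.0 and 108 CPM in controls. On HFD 10 of the 13 tested genes (76.9%, beside 48.8% of all) had fold changes above 0. On SD 7 did (53.8%, beside 50% of all). The median log2 fold change was 0.31 on HFD and 0.06 on SD.

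The TGF-beta pathway outside Tgfb1 had 17 of 22 genes tested. Tgfbi, a matrix protein induced by TGF-beta, rose on HFD, with 53.1 and 41.3 CPM in knockout libraries, against 33.8, 24.8, 28.8 and 22.5 CPM in controls (log2 fold change 0.77, SE 0.17, adjusted p = 0.0230 by edgeR). That call was lost without HFD knockout 1 (0.59, adjusted p = 0.346), HFD control 2 (0.73, adjusted p = 0.0705) or HFD control 4 (0.69, adjusted p = 0.0646). It was also lost with only the compared groups in the fit (0.77, adjusted p = 0.0830) and with replicate number as a block (0.72, adjusted p = 0.0573). Ski, a repressor of SMAD signalling, fell in the averaged comparison by 0.44 (adjusted p = 0.0146), a call lost without SD control 3 (adjusted p = 0.0523) or HFD knockout 2 (adjusted p = 0.0590). Ski had 26.7 and 24.9 CPM in HFD knockout libraries, against 34.8, 43.9, 32.5 and 36.1 CPM in HFD controls, and 23.3, 21.2 and 25.8 CPM in SD knockout libraries, against 30.5, 27.3 and 33.3 CPM in SD controls. On SD edgeR and DESeq2 called 0 of the 17 in either direction. At an unadjusted edgeR p under 0.05 there were 2 higher and 1 lower, beside 7.72% and 9.93% of all tested genes. On HFD Tgfbi was the 1 of 17 called (5.88% higher, beside 1.04% of all). Averaged, Ski was the 1 called by edgeR (5.88% lower, beside 5.36% of all). Fold changes were above 0 for 9 of 17 on HFD (52.9%, beside 48.8%) and 11 on SD (64.7%, beside 50%).

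All 16 genes of collagen processing were tested. Bmp1, the protease that cuts the C-propeptide from fibrillar procollagens, fell on HFD. It had 14.9 and 18.4 CPM in HFD knockout libraries, against 33.9, 36.2, 41.0 and 41.3 CPM in HFD controls, without overlap (log2 fold change -1.19, SE 0.16, adjusted p = 0.000752 by edgeR), and the call held in every alternative run. On SD it had 19.7, 24.4 and 23.3 CPM in knockout libraries, against 23.4, 21.3 and 29.0 CPM in controls, where the groups overlapped. Of 16 further matrix proteases and inhibitors 6 were tested, and neither edgeR nor DESeq2 called any of them in either direction on HFD, on SD or averaged, with 0 at an unadjusted p under 0.05.

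The knockout effect was also compared between diets. The difference of the effect on HFD and on SD passed for 0 of the 29 genes by edgeR, beside 0% of all tested genes (438 genes, or 3.65%, positive and 473, or 3.94%, negative at an unadjusted p under 0.05). None of the 29 had an unadjusted p under 0.05, and DESeq2 called 0 of the 29, with 19 positive and 11 negative over all genes. Acta2 had the lowest value, -1.94 with an adjusted p of 0.860. These tests do not show that the effects were alike on both diets.

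Between diets, Lum and Timp3 fell and Sparc rose on HFD in both genotypes. Diet went with sequencing depth, and the share of counts on the ribosomal RNA gene Rn45s was 0.985% to 1.32% in HFD libraries, against 0.291% to 0.460% in SD libraries. The effect of diet, of depth and of whatever else separates the libraries of the diets cannot be told apart here. The knockout comparisons lie within a diet.

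Lum was lower in every HFD library than in every SD library of either genotype, with the values given above. Its log2 fold change was -1.25 (SE 0.25, adjusted p = 0.00157 by edgeR) in knockout livers, with means of 9.12 CPM on HFD and 21.8 CPM on SD. In controls it was -0.98 (SE 0.22, adjusted p = 0.00291), with means of 7.84 CPM on HFD and 15.6 CPM on SD. Timp3 had 81.8 and 70.7 CPM in HFD knockout libraries, against 123, 134 and 120.2 CPM in SD knockout libraries. In controls it had 85.0, 82.6, 93.5 and 75.9 CPM on HFD, against 134, 106 and 116 CPM on SD. The diets did not overlap in either genotype, and the log2 fold change was -0.72 (SE 0.13, adjusted p = 0.00075) in knockout livers and -0.50 (SE 0.11, adjusted p = 0.00248) in controls.

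Sparc averaged 99.8 ± 36.7 CPM in HFD knockout livers (SD, n = 2) and 55.9 ± 17.4 CPM in SD knockout livers (SD, n = 3). In controls it averaged 66.6 ± 4.98 CPM on HFD (SD, n = 4) and 37.2 ± 4.14 CPM on SD (SD, n = 3). The diets did not overlap in controls and overlapped in knockout livers, where SD knockout 2 at 75.6 CPM exceeded HFD knockout 2 at 73.9 CPM. The log2 fold change was 0.84 in both genotypes, with an adjusted p of 0.0103 in knockout livers and 0.00476 in controls by edgeR. Without HFD knockout 1 the knockout value was 0.43 (adjusted p = 0.219).

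In controls 3 more genes fell on HFD. Lrat was at -0.43 (SE 0.12, adjusted p = 0.0164 by edgeR), Bgn at -0.36 (SE 0.13, adjusted p = 0.0445) and Fn1 at -0.33 (SE 0.11, adjusted p = 0.0383). The Bgn and Fn1 groups did not overlap, while 1 HFD control at 63.3 CPM of Lrat lay above 1 SD control at 62.5 CPM. Lrat missed the threshold without SD control 2 (-0.34, adjusted p = 0.0873) or SD control 3 (-0.41, adjusted p = 0.0571). Bgn missed it without any one of 6 of the 7 control libraries, HFD control 1 being the exception, at -0.37 to -0.29 (adjusted p = 0.0718 to 0.131). Fn1 missed it without SD control 1, SD control 3, HFD control 1, HFD control 3 or HFD control 4, at -0.35 to -0.25 (adjusted p = 0.0508 to 0.181). In knockout livers the values were -0.36 for Lrat, -0.24 for Bgn and -0.20 for Fn1, none of which passed.

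**Figure D5:**
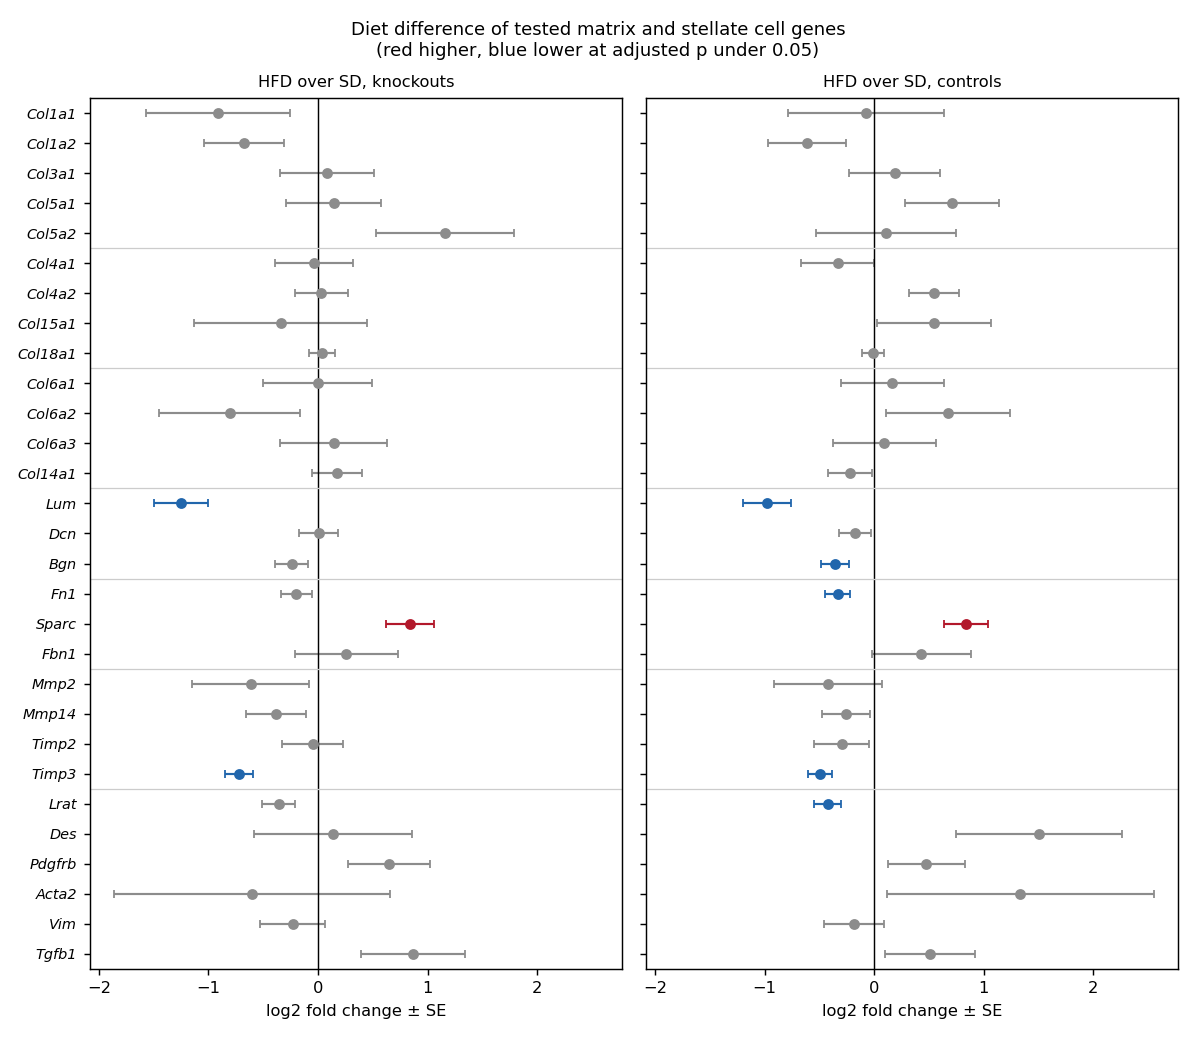
Log2 fold change of HFD over SD, with SE, for the 29 tested genes in knockout livers and in controls, with rows grouped by role. Lum and Timp3 are lower and Sparc higher in both panels, and Bgn, Fn1 and Lrat are lower in controls at an adjusted p under 0.05.

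In all, 1 of 29 genes was higher (3.45%) and 2 lower (6.90%) on HFD in knockout livers, beside 14.9% and 11.7% of all tested genes. In controls 1 was higher (3.45%) and 5 lower (17.2%), beside 16.5% and 13.6% of all. The set's share of higher calls was below the background in both genotypes. Groups did not overlap for 1 gene higher (Tgfb1) and 5 lower in knockout livers, beside 28.2% and 24.5% of all tested genes, and for 1 higher (Sparc) and 4 lower in controls, beside 20.5% and 16.7%. The set's median log2 fold change was -0.04 in knockout livers and -0.02 in controls. The fibrillar collagens did not pass in either genotype, Col1a2 being at -0.67 (adjusted p = 0.191) in knockout livers and -0.62 (adjusted p = 0.211) in controls.

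Enzymes of collagen processing were higher on HFD for 3 of 16 genes (18.8%) in knockout livers and 6 of 16 (37.5%) in controls, beside 14.9% and 16.5% of all tested genes. Loxl2, a lysyl oxidase that crosslinks collagen, had 11.7 and 8.59 CPM in HFD knockout libraries, against 2.33, 2.80 and 0.697 CPM in SD knockout libraries. In controls it had 9.26, 7.94, 9.39 and 10.1 CPM on HFD, against 0.391, 2.01 and 2.44 CPM on SD. The diets did not overlap, with a log2 fold change of 2.38 (SE 0.40, adjusted p = 0.000452 by edgeR) in knockout livers and 2.44 (SE 0.38, adjusted p = 0.000183) in controls. Adamts2, which removes the N-propeptide of procollagen, rose by 1.69 in knockout livers (adjusted p = 0.00317) and 1.61 in controls (adjusted p = 0.00256). In the TGF-beta pathway edgeR called 3 of 17 genes lower on HFD in controls (17.6%, beside 13.6% of all tested genes) and 0 higher. The receptor gene Tgfbr2 fell by 0.61 (adjusted p = 0.00561). Smad3 and Smad4 were the others. Without SD control 3 both calls were lost, at -0.38 (adjusted p = 0.161) and -0.36 (adjusted p = 0.0676). The Smad3 call was also lost with thinned counts (adjusted p = 0.118).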

How the data were processed

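Per the labels' protocols, RNA was extracted from frozen liver with Trizol and total RNA libraries were made with the Nugen Ovation RNA-Seq System V2 kit. The authors deposited raw read counts per gene for each of the 12 libraries. The submitters' processing notes name HTSeq, TopHat2 2.1.0, DESeq2 1.14.1 and the build mm9. Here the counts were filtered with filterByExpr (minimum count 10), scaled by TMM and fitted in edgeR 4.0.16 (R 4.3.3) with 4 group means over all 12 libraries, giving 12015 genes, 6 comparisons and Benjamini-Hochberg adjustment over all genes (threshold 0.05). The biological coefficient of variation was 0.153. CPM used TMM-scaled library sizes. The CPM of different genes were compared per kilobase of GENCODE M21 exon length (lengths only). DESeq2 1.42.0, other scaling, no filter, thinning to 2371167 counts, a replicate block and leaving out libraries were alternatives. The scripts were tested on simulated data. Named genes are the members that passed a test or had an unadjusted p under 0.05 in a knockout comparison, plus up to 4 per other list and comparison with the smallest p among those that passed; remaining members are given by range or fold change. The members and lists were chosen with earlier results of these data known. No libraries were duplicates. Some genes of the marker lists are not reported here.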

Additional observations from a re-analysis of the deposited data

Results flagged for a closer look

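In the HFD controls, the group of 4 libraries, each of the 33 genes was examined for a library far from the others. For continuous values chance gives about 1 such gene in 20, a rate that need not hold at low counts. There were 4. HFD control 4 was low for Col1a1 at 0.780 CPM, where the other 3 had 3.10 to 3.45 CPM, and for Col6a2 at 0.910 CPM, where the others had 1.72 to 1.81 CPM. HFD control 3 was high for Col6a3 at 6.98 CPM, where the others had 3.97 to 4.45 CPM. HFD control 4 was the one HFD control with Timp1, at 0.130 CPM, which is 1 count. A gene counted in a single library is always flagged, so the Timp1 flag carries no information. HFD control 4 was the lowest of its group for 16 of 29 tested genes, and HFD control 1 the highest for 17.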

How the results depend on the processing

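Of 37 pairs of gene and comparison from the set that were followed through the alternatives, 15 were called and 7 stayed called throughout, with 0 changes of sign: Fn1 on SD (-0.99 to -0.84) and averaged (-0.94 to -0.76), Lum and Timp3 between diets in both genotypes, and Sparc between diets in controls. Nr5a2 on HFD was -0.030 without HFD knockout 2 and 0.26 without HFD knockout 1. Without a filter on low counts the HFD knockout comparison called 2 genes higher and 2 lower, the averaged one 7 higher and 2 lower, and diet in controls 3 lower. Over all genes it called 214 higher and 304 lower on HFD, against 125 and 200 with the filter, and 427 and 738 averaged, against 361 and 644. DESeq2 called 2 lower in the averaged comparison. Without SD knockout 2 and HFD knockout 1, chosen after seeing the data, 0 were lower on HFD and 0 higher averaged. With replicate number as a block, 1 was higher averaged (Col1a2), and diet in controls called 2 higher and 3 lower. Deviations from the group mean were correlated between control and knockout libraries of a diet. They gave -0.01 to 0.12 for same-numbered libraries and -0.13 to 0.13 for the others. Deviations of the 2 HFD knockout libraries mirror each other, so this check says little on HFD. The labels do not state that numbers pair animals, and the numbers were not read as pairs. Leaving out 1 library gave 0 higher and 1 lower on SD, 0 to 2 higher and 0 to 2 lower on HFD, 0 to 6 higher and 1 to 2 lower averaged, 0 in either direction for the difference between diets, 1 to 2 higher and 2 to 4 lower for diet in controls, and 0 to 2 higher and 2 to 3 lower for diet in knockout livers. The cause of these changes was not tested. A run without HFD knockout 1 or HFD knockout 2 leaves 1 library in that group. Calls lost there were not told apart from a loss of power. No value was made for the averaged comparison and the difference between diets from the compared groups alone. Depth limits the genes under about 3 CPM on SD.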

Other observations

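Markers of other liver cells were counted in the same tests. Of 10 smooth muscle markers 6 were tested. By edgeR 1 of the 6 (Mylk) was called higher on SD and averaged (16.7%), beside 1.44% and 3% of all tested genes. On HFD 0 were called, beside 1.04% higher of all. Fold changes were above 0 for 3 of the 6 on SD (50%, beside 50% of all). On HFD they were above 0 for 4 (66.7%, beside 48.8% of all). The median log2 fold change was 0.04 on SD and 0.25 on HFD. Mylk, a myosin light chain kinase, had 237, 225 and 227 CPM in SD knockout libraries, against 173, 131 and 138 CPM in SD controls, without overlap (log2 fold change 0.64, SE 0.11, adjusted p = 0.00318 by edgeR). On HFD it had 169 and 178 CPM in knockout libraries, against 148, 138, 152 and 143 CPM in controls, and averaged over the diets it was 0.45 higher (adjusted p = 0.00179). Both calls held in every alternative run. The knockout effect on HFD minus that on SD was -0.39 (adjusted p = 0.578).

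All 15 Kupffer cell markers were tested, and edgeR and DESeq2 called 0 of them in either direction on HFD, on SD or averaged; at an unadjusted p under 0.05 there was 1 higher on SD and 0 on HFD or averaged. Of the 15 endothelial markers, whose sums stand beside the collagens above, 0 were called by edgeR or DESeq2 on either diet (at an unadjusted p under 0.05, 2 higher on HFD, and 1 higher and 1 lower on SD). The scavenger receptor gene Stab1 averaged 0.52 higher (adjusted p = 0.0452), a call lost without SD control 2 or 3, SD knockout 2 or 3, HFD control 2, 3 or 4, or either HFD knockout library, at 0.44 to 0.60 (adjusted p = 0.0561 to 0.156). None of the 3 tested portal fibroblast and mesothelial markers, of 10 listed, had an unadjusted p under 0.05 in a knockout comparison.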
